A study of Mus musculus with 6 samples.

Results

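The genes described here mark macrophages, monocytes and related white blood cells of the myeloid line, measured in whole mouse hearts. They are 34 genes from a list chosen with earlier results of these data known. All 34 had a probe annotated to that gene alone, out of 22180 genes with such a probe. Each was read by its only such probe, so no choice between probes was involved. The series holds 6 heart samples on 6 Affymetrix arrays, from mice of a mixed C57BL/6 x 129S6 background. The 3 control samples carried Nkx2.5-Cre, a Cre recombinase expressed from the locus of a cardiac progenitor gene. The 3 other samples, called transgenic here, carried Nkx2.5-Cre together with R26R-miR302-367, in which Cre switches on a microRNA cluster placed at the Rosa26 locus. Nkx2.5-Cre was thus common to both groups. The source name and harvest protocol place the hearts at postnatal day 14, while the age field of the same samples reads E14. The labels do not say whether samples came from separate or pooled animals, so a p-value here speaks only of sample-to-sample spread, which may be technical. Which heart cells besides those of the Nkx2.5 lineage carried the cluster was not measured here.

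Macrophages enter the heart in the embryo, from yolk sac and fetal liver precursors, and many then maintain themselves in place. Resident cardiac macrophages are commonly recognised by Lyve1, Timd4 and Folr2 together, whereas cells recently derived from blood monocytes carry the chemokine receptor Ccr2. Survival of macrophages depends on the receptor Csf1r and its ligands Csf1 and Il34, and their identity on the transcription factor PU.1, encoded by Spi1. They clear dead cells, make complement C1q and sense antibodies through Fc receptors that signal by way of the adaptors Fcer1g and Tyrobp.

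Mature microRNAs of the cluster, 3p forms only, are shown because the cluster defines the comparison. That of miR-302a was not in the sequences at hand, so the set is incomplete. Sequences are from RefSeq (GRCm38.p6), 5′ to 3′, with the seed, bases 2 to 8, in capitals. The first 2 share a seed, the mature form of miR-302c starts 1 base later so that its seed is shifted, and the fourth has a seed of its own.
mmu-miR-302b-3p: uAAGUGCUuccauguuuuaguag
mmu-miR-302d-3p: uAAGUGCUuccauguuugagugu
mmu-miR-302c-3p: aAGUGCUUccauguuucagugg
mmu-miR-367-3p: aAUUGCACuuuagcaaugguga

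Myeloid genes were lower in transgenic hearts across most of their roles. Of 34 members, 18 fell and 0 rose at a limma adjusted p of at most 0.05, against 5.76% of all genes tested called lower and 5.35% called higher. The members had a median log2 fold change of -0.45 (transgenic minus control), while that of all genes was -0.03. In all, 33 members had a negative value, and Ms4a7 was the exception. For 28 members every transgenic sample lay below every control sample, a pattern that 16.7% of all genes showed. No member had the groups separated the other way. Without control 1 the count of members called lower was 11, with 3.24% of all genes called lower. These are whole hearts, and each value is relative to the other RNA of its sample. Fewer macrophages, less RNA per macrophage and more RNA from other cells therefore cannot be told apart.

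**Figure D1:**
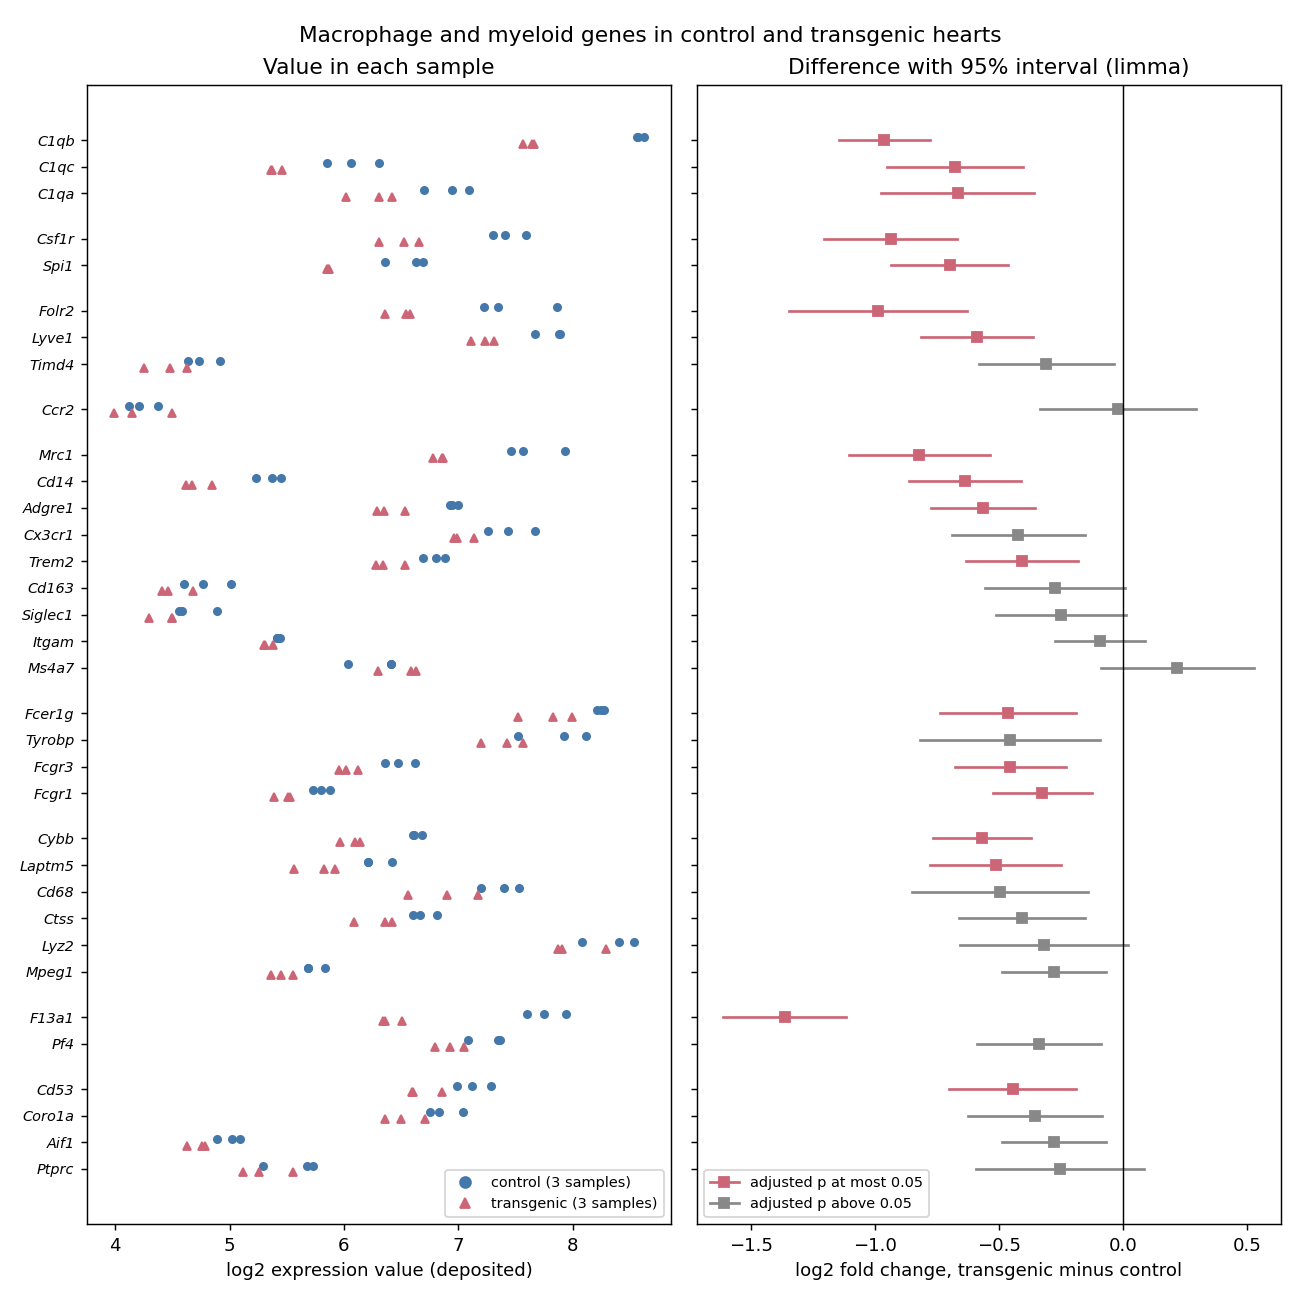
Left, deposited log2 expression values of the 34 genes in each of 3 control (circles) and 3 transgenic (triangles) samples, grouped by role. Right, log2 fold change (transgenic minus control) with the 95% interval from limma, coloured by whether the adjusted p was at most 0.05; F13a1 lies furthest to the left at -1.36 and Ms4a7 alone lies to the right of 0, at 0.22.

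The samples were not shifted equally within their groups. The mean log2 value over the 34 genes was 6.59, 6.65 and 6.55 in controls 1, 2 and 3, and 6.04, 6.15 and 6.16 in transgenic samples 1, 2 and 3. Transgenic 1 was the lowest transgenic sample for 21 of the 34 genes, and control 2 was the highest control for 17. Medians over all probes lay between 5.45 and 5.54 on the 6 arrays. By Xist and Y-linked probes, control 2 and transgenic 1 and 3 were female and the others male. With sex as a term in the model 14 members fell, all among the 18, and 4.68% of all genes were called lower. Between the female samples (1 control, 2 transgenic) the median difference was -0.51 for the members and -0.02 for all genes. Between the male samples (2 control, 1 transgenic) it was -0.39 and -0.03. Each split has only 1 sample in a group and reuses the arrays of the main result. No called member had overlapping groups, so all 18 had to be lower in both sexes.

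Csf1r encodes the receptor for macrophage colony-stimulating factor and is used as a defining marker of the lineage. Its log2 values were 7.30, 7.41 and 7.59 in the control samples and 6.31, 6.52 and 6.66 in the transgenic samples. The highest transgenic sample thus lay well below the lowest control, and the level fell by 0.94 on the log2 scale (SE 0.12, limma adjusted p = 0.001962), to 52.2% of control. Spi1, the gene of PU.1, had 6.70, 6.36 and 6.63 in controls and 5.86, 5.87 and 5.85 in transgenic hearts. The 3 transgenic values of Spi1 were almost identical while the controls spread over a wider range, and the gene fell by 0.70 (SE 0.10, limma adjusted p = 0.004266).

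Both ligands of Csf1r were lower as well. Csf1, made by stromal, endothelial and muscle cells among others, had 7.03, 7.01 and 7.10 in controls and 6.06, 6.34 and 6.08 in transgenic hearts. It fell by 0.89 (SE 0.10, limma adjusted p = 0.001271). Il34, the other ligand, had 6.31, 6.00 and 6.09 in controls and 5.38, 5.61 and 5.47 in transgenic hearts, and fell by 0.65 (limma adjusted p = 0.007193). For neither ligand did the groups overlap, and both were called in all 16 alternative analyses. Of the 9 ligand and receptor genes of this family outside the members, these 2 fell and 0 rose. Csf3r, the neutrophil growth factor receptor, had a value of 0.31 (adjusted p = 0.11), and Csf2rb2, a receptor chain, of -0.23 (adjusted p = 0.3515).

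Of 10 measured macrophage transcription factors, a list that includes Spi1, 4 fell and 0 rose, with a median of -0.27. Maf, a transcription factor of mature macrophages, fell by 0.57 (limma adjusted p = 0.007691) and was called in every alternative. Runx1, a factor of blood cell formation, fell by 0.47 (adjusted p = 0.02141), and this call was lost without control 1 (0.06817), transgenic 1 (0.08236) or transgenic 2 (0.08309). Cebpb, a factor of myeloid and many other cells, fell by 0.45 (adjusted p = 0.01797), lost without control 1 (0.05166), control 2 (0.05234) or transgenic 2 (0.07098). Irf8, needed for monocytes and some dendritic cells, had a value of 0.09 (adjusted p = 0.6433).

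Resident markers and the monocyte marker were compared next. Lyve1, a hyaluronan receptor, had log2 values of 7.67, 7.89 and 7.88 in controls and 7.23, 7.32 and 7.12 in transgenic hearts. It fell by 0.59 (SE 0.10, limma adjusted p = 0.007223). Folr2, a folate receptor, had 7.35, 7.86 and 7.23 in controls and 6.58, 6.36 and 6.54 in transgenic hearts. Every transgenic sample was below every control for both genes, and Folr2 fell by 0.99 (SE 0.16, limma adjusted p = 0.00576), to 50.4% of control.

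Timd4, a receptor for phosphatidylserine on dying cells, had 4.73, 4.64 and 4.92 in controls and 4.63, 4.25 and 4.48 in transgenic hearts. The groups did not overlap, but by a margin smaller than the spread within either, and Timd4 did not pass (value -0.31, 95% interval -0.58 to -0.04, limma adjusted p = 0.1439). Ccr2 had 4.20, 4.37 and 4.12 in controls and 4.15, 4.50 and 3.99 in transgenic hearts. Transgenic samples held both the highest and the lowest Ccr2 value, and the log2 fold change was -0.02 (95% interval -0.33 to 0.29, limma adjusted p = 0.9482). The sign of this value turned under some alternatives, to 0.02 with a sex term, and to 0.05, 0.01 and 0.09 without control 2, transgenic 1 and transgenic 3.

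The difference between a resident marker and Ccr2 within each sample was then taken. Lyve1 minus Ccr2 was 3.47, 3.52 and 3.76 log2 units in controls and 3.09, 2.82 and 3.13 in transgenic hearts, lower by 0.57 (95% limma interval of the difference -0.84 to -0.30). Folr2 minus Ccr2 was 3.15, 3.49 and 3.11 in controls and 2.43, 1.86 and 2.55 in transgenic hearts, with a difference of -0.97 (95% interval -1.38 to -0.55). For both genes every transgenic difference lay below every control difference. Since the Ccr2 probe was dim and its mean nearly the same in both groups, these differences mostly repeat the lower Lyve1 and Folr2 values and do not measure resident against monocyte-derived cells. For each the two-sided exact permutation p was 0.1, the smallest that 3 against 3 samples can give, and 0.15 after Benjamini-Hochberg adjustment over the 3 markers. Timd4 minus Ccr2 was 0.53, 0.27 and 0.80 in controls and 0.48, -0.25 and 0.49 in transgenic hearts. These groups overlapped, with a difference of -0.29 (95% interval -0.76 to 0.19, exact permutation p = 0.4). The Timd4 difference was -0.04 without transgenic 2 and -0.16 without control 3. All 3 differences share the Ccr2 values.

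**Figure D2:**
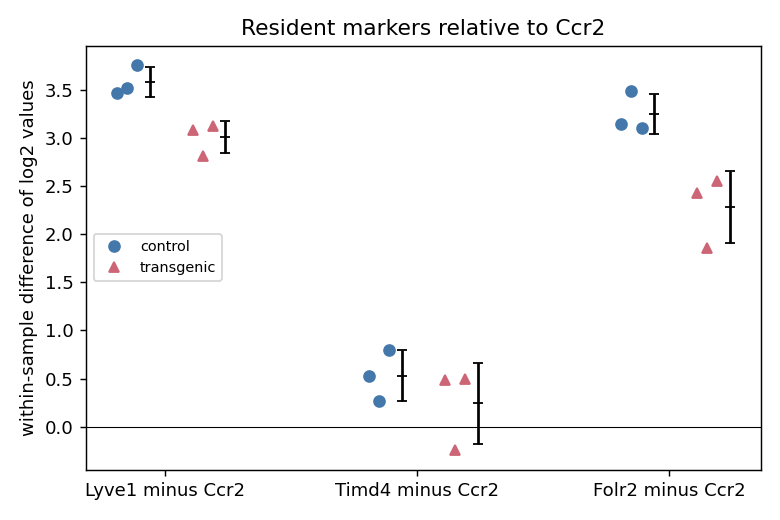
Within-sample difference of log2 values, resident marker minus Ccr2, in 3 control (circles) and 3 transgenic (triangles) samples, with bars for the mean and SD of each group. The transgenic samples lie below the controls for Lyve1 and Folr2 and overlap them for Timd4; heights of different pairs are not comparable, since each probe has its own scale.

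The Ccr2 and Timd4 probes were dim, which bears on how far these values can be read. Probes differ in how they bind, so levels of different genes compare only roughly. The control mean of Ccr2 (4.23) was above that of 80.1% of 1394 olfactory and vomeronasal receptor genes, a group the heart is not known to use, and that of Timd4 (4.76) above 88.5%. The 95th percentile of those receptor genes was 5.41, and 28 of 34 members lay above it. The other 6 were Ccr2, Timd4, Cd163, Siglec1, Aif1 (5.003) and Cd14 (5.349). A change of a probe near this level is compressed, so a change of Ccr2 may not have been detectable. The receptor genes were chosen as a reference after the values were seen.

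Other genes of resident and of monocyte-derived cells were taken from lists chosen, like the members, with earlier results of these data known. Cbr2, a carbonyl reductase abundant in resident cardiac macrophages, had 7.81, 8.38 and 8.04 in controls and 6.21, 6.79 and 6.76 in transgenic hearts. It fell by 1.49 (SE 0.19, limma adjusted p = 0.001883), more than any member, and was called in every alternative. Of 10 measured resident genes 4 fell and 2 rose, with a median of -0.11. The others that fell were Maf and Stab1, described with other lists, and Dab2, an endocytic adaptor, with a value of -0.34 (adjusted p = 0.03254), lost without control 1 (0.08189), control 2 (0.08702), transgenic 1 (0.1043), transgenic 2 (0.09684) or transgenic 3 (0.09193). Igf1 and Gas6, secreted factors also made by other heart cells, rose by 0.48 and 0.45 (adjusted p = 0.01481 and 0.02012). The Igf1 call was lost without transgenic 1 (0.0642) or transgenic 2 (0.05064), and that of Gas6 without control 1 (0.07522), transgenic 1 (0.08144) or transgenic 2 (0.07143).

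Of 11 measured monocyte genes beside Ccr2, 2 fell and 1 rose, and the median was 0.04. Ly6c2, the gene of a surface antigen on inflammatory monocytes, fell by 0.96 (limma adjusted p = 0.003482). Its close relative Ly6c1 is expressed by endothelium, and the probes may not tell the pair apart. Ace, the angiotensin-converting enzyme, which is also endothelial, fell by 0.70 (adjusted p = 0.005329). Chil3, a secreted lectin of monocytes and macrophages, had a value of 0.36 (adjusted p = 0.1396) and Plac8, a small protein of monocytes, of 0.04 (adjusted p = 0.8422). Both probes were dim (control means 4.67 and 4.57), as were some others of this list and of the resident list. Changes of such genes may not have been detectable. Vcan, a proteoglycan of monocytes and of heart stroma, was higher by 0.41 (adjusted p = 0.02637), though not when control 1 (0.08948), control 3 (0.0558), transgenic 1 (0.09797) or transgenic 2 (0.1029) was left out.

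**Figure D3:**
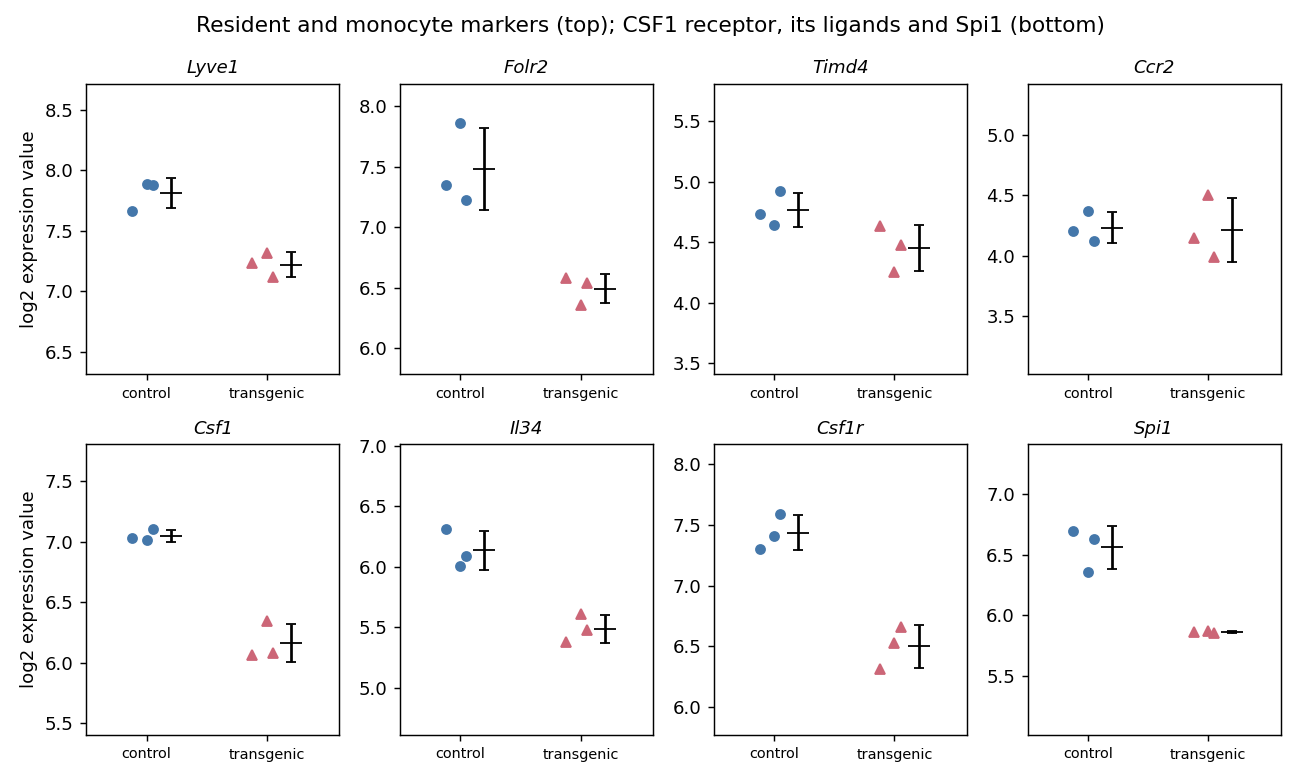
Deposited log2 values of 8 genes in 3 control (circles) and 3 transgenic (triangles) samples, with bars for mean and SD; every panel spans the same range of log2 units. Groups are separated for all genes but Ccr2, narrowly so for Timd4.

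The 3 chains of C1q, the recognition protein of the classical complement pathway, are encoded by neighbouring genes and were all lower. C1qb had 8.57, 8.63 and 8.57 in controls and 7.66, 7.57 and 7.65 in transgenic hearts. The replicates of C1qb were tight in both groups, and it fell by 0.96 (SE 0.081, limma adjusted p = 0.000331). C1qc had 6.31, 6.06 and 5.85 in controls and 5.36, 5.37 and 5.46 in transgenic hearts, and fell by 0.68 (adjusted p = 0.008881). C1qa had 6.95, 7.10 and 6.70 in controls and 6.02, 6.30 and 6.42 in transgenic hearts, and fell by 0.67 (adjusted p = 0.01625). The C1qa call was lost without control 1 (0.05708), transgenic 1 (0.05907) or transgenic 2 (0.0521). For each chain the groups did not overlap.

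Of 11 measured complement components and receptors outside C1q, 1 fell and 0 rose, with a median of -0.05. It was C5ar1, the receptor for the fragment C5a, which fell by 0.42 (limma adjusted p = 0.03203). Leaving out control 1 (0.08359), control 2 (0.05402), control 3 (0.06946), transgenic 2 (0.1203) or transgenic 3 (0.1017) ended the call. C3ar1, the receptor for C3a, had a value of -0.47 (adjusted p = 0.09254), and C4b, a complement component, of -0.22 (adjusted p = 0.1354).

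F13a1, the A subunit of coagulation factor XIII and a gene of macrophages and monocytes, changed most among the members. Its log2 values were 7.75, 7.95 and 7.60 in controls and 6.50, 6.36 and 6.35 in transgenic hearts. More than 1 log2 unit separated the lowest control from the highest transgenic sample, and the level fell by 1.36 (SE 0.11, limma adjusted p = 0.000309), to 38.9% of control (95% interval 32.7 to 46.1). It ranked 43rd among 22180 genes by size of fall. Pf4, the chemokine platelet factor 4, which megakaryocytes and tissue macrophages express, had 7.36, 7.35 and 7.08 in controls and 6.80, 6.93 and 7.05 in transgenic hearts. The highest transgenic Pf4 value nearly reached the lowest control, and the gene did not pass (value -0.34, limma adjusted p = 0.08861), but did without control 3 (0.03707).

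Among 9 surface receptors, 4 fell and 0 rose. Mrc1, the mannose receptor CD206 of tissue macrophages, had 7.46, 7.93 and 7.57 in controls and 6.85, 6.78 and 6.87 in transgenic hearts, and fell by 0.82 (SE 0.13, limma adjusted p = 0.004724). Adgre1, which encodes the F4/80 antigen, had 6.93, 6.997 and 6.95 in controls and 6.29, 6.35 and 6.53 in transgenic hearts, and fell by 0.57 (adjusted p = 0.006412). Cd14, a co-receptor for bacterial lipopolysaccharide, had 5.45, 5.37 and 5.23 in controls and 4.62, 4.85 and 4.67 in transgenic hearts, and fell by 0.64 (adjusted p = 0.005124). These 3 genes separated the groups in every sample. Trem2, a lipid-sensing receptor that signals through Tyrobp, had 6.88, 6.80 and 6.69 in controls and 6.28, 6.53 and 6.34 in transgenic hearts, and fell by 0.41 (adjusted p = 0.03374).

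The other 5 surface receptors did not pass. Cx3cr1, the fractalkine receptor, had 7.43, 7.26 and 7.67 in controls and 6.96, 7.14 and 6.99 in transgenic hearts (value -0.42, limma adjusted p = 0.05306), and 7 of 16 alternatives called it lower, among them the one without control 2 (0.03234). Cd163, the haemoglobin scavenger receptor, had a value of -0.28 (adjusted p = 0.2058) and Siglec1, a sialic acid receptor, of -0.25 (adjusted p = 0.2185), both on dim probes. Itgam, the CD11b integrin chain shared by monocytes, neutrophils and macrophages, had 5.42, 5.41 and 5.44 in controls and 5.31, 5.30 and 5.38 in transgenic hearts. The Itgam groups did not overlap but the gap was small (value -0.09, 95% interval -0.28 to 0.09). Ms4a7, a membrane protein of macrophages, had 6.41, 6.42 and 6.03 in controls and 6.30, 6.63 and 6.59 in transgenic hearts. It was the one member with a positive value, 0.22 (95% interval -0.09 to 0.53, adjusted p = 0.3698).

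Of the Fc receptors and their adaptors 3 of 4 fell. Fcer1g, the common gamma chain, had 8.25, 8.28 and 8.21 in controls and 7.52, 7.99 and 7.83 in transgenic hearts, and fell by 0.46 (limma adjusted p = 0.04242). Fcgr3, a low-affinity IgG receptor, had 6.47, 6.63 and 6.36 in controls and 6.12, 6.02 and 5.96 in transgenic hearts, and fell by 0.45 (adjusted p = 0.02134). Fcgr1, the high-affinity IgG receptor, had 5.80, 5.73 and 5.88 in controls and 5.39, 5.53 and 5.51 in transgenic hearts, and fell by 0.33 (adjusted p = 0.04746). Groups did not overlap for these 3. Tyrobp, the adaptor DAP12, had 7.92, 8.12 and 7.52 in controls and 7.20, 7.43 and 7.57 in transgenic hearts. Control 3 lay below transgenic 3, and Tyrobp did not pass (value -0.46, adjusted p = 0.1079); without control 3 it did (0.02283).

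Of 14 measured genes of signalling by immunoreceptor tyrosine motifs, which include Fcer1g, Tyrobp and Trem2, 3 fell and 0 rose, with a median of -0.13. Blnk, an adaptor of B cells and some macrophages, was the one outside the members and fell by 0.35 (limma adjusted p = 0.04801), a call that remained in 5 of 15 alternatives and was lost when any 1 sample was left out (adjusted p from 0.07644 to 0.1423). Sirpa, an inhibitory receptor of myeloid and muscle cells, had a value of -0.42 (adjusted p = 0.05732).

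Genes of the lysosome and of microbial killing had a median of -0.45, and 2 of 6 fell. Cybb, the catalytic subunit of the phagocyte NADPH oxidase, had 6.62, 6.68 and 6.61 in controls and 5.96, 6.14 and 6.10 in transgenic hearts. It fell by 0.57 (SE 0.087, limma adjusted p = 0.004705) with clear separation of the groups. Laptm5, a lysosomal membrane protein of blood cells, had 6.21, 6.42 and 6.21 in controls and 5.56, 5.82 and 5.92 in transgenic hearts, and fell by 0.51 (adjusted p = 0.02468). Cd68, a macrophage lysosomal glycoprotein, had 7.20, 7.53 and 7.40 in controls and 6.56, 7.17 and 6.90 in transgenic hearts, and did not pass (value -0.50, adjusted p = 0.07867). Transgenic 2 was the highest transgenic sample for Cd68, and without it the call was made (adjusted p = 0.04704).

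Ctss, the antigen-processing protease cathepsin S, had a value of -0.41 and narrowly missed the threshold (limma adjusted p = 0.05061) with no overlap of the groups. Mpeg1, the pore-forming perforin-2, had -0.28 (adjusted p = 0.09035), also without overlap. Lyz2, lysozyme of myeloid cells, had 8.08, 8.54 and 8.41 in controls and 7.87, 7.91 and 8.29 in transgenic hearts. Its groups overlapped through control 1 and transgenic 3 (value -0.32, adjusted p = 0.2235), and its neighbour Lyz1 is a near copy whose signal the probe may share.

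In the NADPH oxidase list of 5 measured genes, Cybb was the only one called; Ncf4 and Ncf1, cytosolic subunits of the enzyme, had values of -0.29 and -0.26 (adjusted p = 0.07977 and 0.2908). Of 11 lysosomal genes used by many cell types, 2 fell and 0 rose, with a median of -0.14. Ctsb, the protease cathepsin B, fell by 0.64 (limma adjusted p = 0.004362). Psap, the precursor of the saposins, fell by 0.37 (adjusted p = 0.02475), and of the 6 analyses that left out a sample only that without control 3 kept the call (0.05396 to 0.08293 in the others).

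The last role held general leukocyte genes, with Aif1, which is also a marker of macrophages, and their median was -0.32. Cd53, a tetraspanin of leukocytes, had 7.28, 7.12 and 6.99 in controls and 6.59, 6.86 and 6.61 in transgenic hearts, and fell by 0.45 (limma adjusted p = 0.03754). It was the one of these 4 members that passed. Coro1a, an actin regulator, had a value of -0.35 (adjusted p = 0.09614) and Aif1, the calcium-binding protein IBA1, of -0.28 (adjusted p = 0.09415), both without overlap of the groups. Ptprc, the leukocyte antigen CD45, had 5.73, 5.67 and 5.29 in controls and 5.25, 5.12 and 5.56 in transgenic hearts. These values overlapped (value -0.25, 95% interval -0.59 to 0.09, adjusted p = 0.3409).

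Not all 18 calls were equally firm. In every one of the 16 alternatives that tested them, 11 members were called lower: C1qb, C1qc, Csf1r, Spi1, Lyve1, Folr2, Mrc1, Cd14, Adgre1, Cybb and F13a1. Cd14 was left out by both filters on dim genes and so was tested in 14. The other 7 calls, that of C1qa included, depended on single samples. Trem2 no longer passed without control 1 (limma adjusted p = 0.1113), control 2 (0.07561), transgenic 1 (0.1227) or transgenic 3 (0.1028), and nor did Cd53 without the same samples (0.1193, 0.07683, 0.1313 and 0.1176). Laptm5 missed the threshold without control 1 (0.05733), control 2 (0.06793), transgenic 1 (0.08214) or transgenic 2 (0.06881), and Fcgr3 without control 1 (0.06395), control 2 (0.05896), transgenic 2 (0.07928) or transgenic 3 (0.07618). Fcer1g was kept only when transgenic 2 was the sample left out, with an adjusted p between 0.0683 and 0.1117 without each of the others. Fcgr1 was lost whichever sample was left out, at 0.06309 to 0.1611. With sex in the model Trem2 (0.07361), Cd53 (0.07851), Fcer1g (0.08752) and Fcgr1 (0.1025) were lost.

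Markers of other cell types were read beside the members. Endothelial markers moved in the same direction, with 7 of 12 called lower and 0 higher and a median of -0.39. The count of endothelial markers called lower was 1 without control 1, transgenic 1 or transgenic 2, 3 without control 2 or transgenic 3, and 6 without control 3. The shares of all genes called lower were 3.24%, 2.89%, 2.71%, 3.87%, 3.65% and 5.77% in the same order, against 5.76% with all samples. Medians of the endothelial markers lay between -0.40 and -0.34 whichever sample was left out. Their summed level ranged from 13.15 to 13.22 in controls and from 12.75 to 12.88 in transgenic hearts (log2 of the sum), and that of the members from 12.04 to 12.17 and from 11.43 to 11.58. Pecam1, the endothelial adhesion molecule CD31, which some leukocytes also carry, fell by 0.50 (limma adjusted p = 0.01046). The part of endothelial cells in the myeloid result was not tested. Lyve1 also marks lymphatic endothelium. Of 6 other lymphatic markers, chosen after the values were seen, 0 were called by limma (3 at an unadjusted p under 0.05) and 4 had positive values. Over all 22180 genes, 5633 had such a p and 9613 a positive value. Those with the smallest p were Flt4, a lymphatic growth factor receptor (value -0.29, limma adjusted p = 0.1421), Mmrn1, a secreted multimerin (0.30, adjusted p = 0.1575), Nts, the neuropeptide neurotensin (-0.39, adjusted p = 0.1679), and Prox1, a lymphatic and heart muscle transcription factor (0.19, adjusted p = 0.2245). The part of lymphatic cells in the Lyve1 result was not tested.

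**Figure D4:**
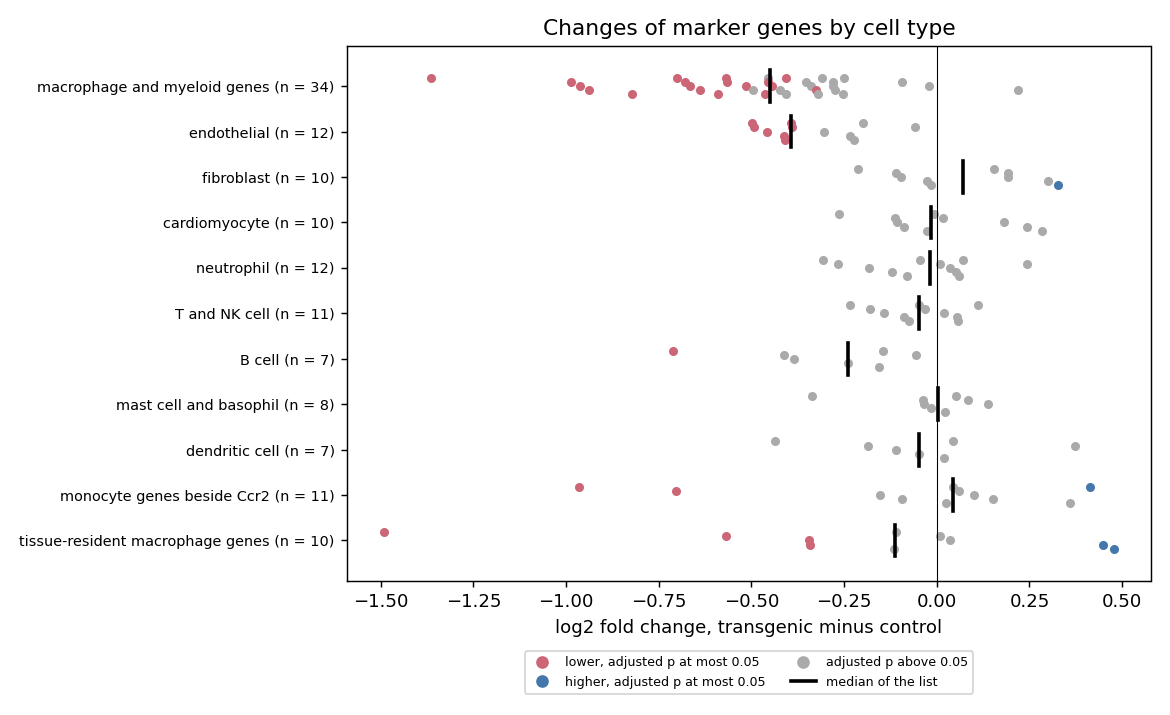
Log2 fold changes (transgenic minus control) of marker genes, 1 point per gene, by cell type or group; colours give the direction of genes with an adjusted p of at most 0.05 and black bars the median of each list. The macrophage and myeloid genes (median -0.45), the endothelial markers (-0.39) and the B cell markers (-0.24) lie to the left. The fibroblast (0.07), cardiomyocyte (-0.02), neutrophil (-0.02) and T and NK cell (-0.05) medians lie near 0.

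Among markers of other white blood cells, 0 of 12 neutrophil, 0 of 11 T and NK cell, 0 of 8 mast cell and basophil and 0 of 7 dendritic cell genes were called by limma. At an unadjusted limma p under 0.05 the counts were 2, 1, 1 and 2, while 5633 of all 22180 genes had such a p. Median control means were 4.34 for neutrophil, 4.69 for T and NK cell, 5.17 for mast cell and basophil and 6.05 for dendritic cell genes. Outside the dendritic cell list most probes were dim, so a change there may not have been detectable. The dendritic cell genes with the smallest p were Cd209a (value 0.37, limma adjusted p = 0.06632) and Flt3 (-0.44, adjusted p = 0.1112). All 7 measured B cell genes had negative values and 1 was called, Ighm, the immunoglobulin mu chain (value -0.71, adjusted p = 0.04289). Ighm has 7 probes, and with their average the value was -0.22 (adjusted p = 0.2611). That call was also lost without any 1 control sample (0.07292 to 0.1068), without transgenic 1 (0.1437) or without transgenic 2 (0.1328). Of 10 cardiomyocyte markers 0 were called (3 at an unadjusted p under 0.05), and of 10 fibroblast markers 1 was, Postn, a matrix protein of activated fibroblasts, which was higher by 0.33 (adjusted p = 0.04495). The Postn call was lost whichever sample was left out (0.06818 to 0.1591). Of 8 erythroid genes 1 was measured and it was not called.

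Monocytes are drawn into tissue by chemokines. Of 12 such ligands 2 fell and 0 rose, with a median of -0.16. Cxcl12, which retains many blood cells in tissue, had 9.41, 9.42 and 9.32 in controls and 8.88, 8.85 and 8.83 in transgenic hearts, and fell by 0.53 (limma adjusted p = 0.004809). Ccl24, an eotaxin made by resident macrophages, fell by 0.47 (adjusted p = 0.02232), which did not pass once control 1 (0.05719), control 2 (0.05915), transgenic 1 (0.08885) or transgenic 2 (0.09243) was left out. Ccl2, the main ligand of Ccr2, had a value of -0.21 (adjusted p = 0.3452) and Ccl7, another, of -0.23 (adjusted p = 0.2771). Ccl9, a chemokine of myeloid cells, had -0.50 (adjusted p = 0.05372).

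Scavenger and clearance receptors and inflammatory mediators completed the lists. Of 13 clearance receptors, which include Mrc1, Cd163 and Timd4, 2 fell and 0 rose, with a median of -0.29. Stab1, a scavenger receptor of resident macrophages and sinus endothelium, fell by 0.34 (limma adjusted p = 0.04744), and no analysis that left out a sample, other than control 3, kept the call (0.09494 to 0.1618). Of 11 inflammatory mediators 0 were called by limma, with 4 at an unadjusted p under 0.05 and a median of -0.10. Of all 22180 genes, 5633 had such a p. Among them Tnf had a value of -0.29 (limma adjusted p = 0.1211) and Il6, a cytokine on a very dim probe, of -0.30 (adjusted p = 0.05101). Nos2 and Ptgs2 had values of -0.31 and -0.38 (adjusted p = 0.0646 and 0.07105).

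Promoters of the members were also described by their letters. They were searched for GAGGAA, the core of the site that PU.1 binds, on both strands. RefSeq (GRCm38.p6) upstream windows were at hand for 26 of the 34 genes, 32 windows in all, each the 250 bases before an annotated start. GAGGAA was in 50% of these windows and in 23.3% of 32851 windows of all genes. The longer GAGGAAGT, which contains it, was in 6.25% and 2.44%. Both overlapping windows of Fcgr3 hold the same GAGGAA. No share by gene was computed over all genes. By gene, 9 of 12 called and 6 of 14 uncalled members with a window had GAGGAA in it. The 8 members without a window were Csf1r, Spi1, C1qa, Lyve1, Cd14 and Adgre1, which fell, and Siglec1 and Tyrobp, so 6 of the 18 called members are not in this count. A match is a run of letters and not a measured binding site, and a part of PU.1 in the lower levels was not tested. The windows below belong to C1qb and C1qc, subunits of 1 protein, to F13a1, the member that changed most, and to Mrc1, which had the most matches. Capitals mark GAGGAA, or TTCCTC where it lies on the opposite strand.
C1qb, chr4:136886201-136886450, minus strand: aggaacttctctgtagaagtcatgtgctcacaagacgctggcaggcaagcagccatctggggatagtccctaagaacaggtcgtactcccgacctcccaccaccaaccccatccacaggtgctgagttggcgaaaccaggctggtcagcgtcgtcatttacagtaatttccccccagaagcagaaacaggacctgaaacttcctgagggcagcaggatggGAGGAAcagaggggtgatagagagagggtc
C1qc, chr4:136892915-136893164, minus strand: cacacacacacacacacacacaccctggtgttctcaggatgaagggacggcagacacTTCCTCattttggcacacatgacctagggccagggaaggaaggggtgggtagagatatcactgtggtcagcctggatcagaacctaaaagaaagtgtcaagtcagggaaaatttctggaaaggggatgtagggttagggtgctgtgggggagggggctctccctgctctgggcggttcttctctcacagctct
F13a1 (1 of 2 windows), chr13:37050245-37050494, minus strand: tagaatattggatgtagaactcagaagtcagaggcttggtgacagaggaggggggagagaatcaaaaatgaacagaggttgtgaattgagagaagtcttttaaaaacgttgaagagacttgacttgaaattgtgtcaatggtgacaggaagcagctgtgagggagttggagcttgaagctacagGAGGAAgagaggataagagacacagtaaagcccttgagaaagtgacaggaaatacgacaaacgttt
Mrc1, chr2:14229164-14229413, plus strand: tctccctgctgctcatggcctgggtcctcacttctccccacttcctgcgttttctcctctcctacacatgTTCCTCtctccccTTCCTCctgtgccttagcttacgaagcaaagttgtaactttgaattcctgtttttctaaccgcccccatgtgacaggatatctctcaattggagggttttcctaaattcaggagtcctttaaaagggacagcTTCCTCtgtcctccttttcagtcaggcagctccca

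In C1qb the match begins 30 bases before the start and in F13a1 66 bases before it, while in C1qc it lies 193 bases before. The other window of F13a1, not shown, had no match. Mrc1 has 3 matches, all on the opposite strand, the nearest 35 bases before the start. Folr2, Cybb and Fcer1g, which fell, had none in their windows, and neither had Ccr2 and Timd4, which did not pass.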

How the data were processed

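Gene expression was measured in 6 heart samples, 3 per group. The authors deposited a log2 value for each probe and array; limma, RMA and oligo were used per the submitters' processing notes, which hold no versions. Annotation and probe filters: not given in the sources used here. From 100 ng of RNA, cDNA was primed with poly(T), per the labels' protocols. Such values compress changes of dim probes.

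Of 41345 probes, 23521 had 1 gene symbol in the platform annotation, 1814 several and 16010 none. The brightest single-symbol probe per gene gave 22180 genes, all 34 members among them. The 2 groups entered a linear model in limma 3.58.1 (R 4.3.3, with eBayes, no covariate and no filter), Benjamini-Hochberg adjusted over all genes at 0.05. Of the steps, only the limma fit was tested on simulated data, in which genes varied independently. With 6 arrays precision is limited by their number. The members and gene lists were chosen with earlier results of these data known. Named from other lists were up to 4 genes by smallest p, with Csf1 and Il34 in any case; Irf8, Plac8, Ccl2, Ccl7 and Dab2 were chosen after their values were seen. Alternatives varied the filter, probes, normalization, variance model, array weights, replicate block, sex and samples. Same-numbered samples of the groups did not deviate together (correlations 0.0163, -0.130 and 0.0138).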

Additional observations from a re-analysis of the deposited data

How the results depend on the processing

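The count of members called lower was 18 and stayed within 1.5 times of it in every alternative but one. It ranged from 11 (without control 1) to 18 when single samples were left out, was 24 with renewed quantile normalization (8.07% of all genes called lower, against 5.76% in the main analysis), 14 with a sex term (4.68%) and 16 with the replicate number as a block (4.5%), which kept 15 of the 18. No member was called higher in any of the 16 alternatives. The median log2 fold change of the members ranged from -0.48 to -0.37 over the left-out samples, lowest in size without transgenic 1. The Ccr2 value turned positive with a sex term (0.0157) and without control 2 (0.0486) or transgenic 1 (0.0106), and ranged from -0.166 to 0.091 when single samples were left out. Without the dimmest 0.333 of genes 6 members, Ccr2 and Timd4 among them, had no value, and differences from Ccr2 could not be computed. Lyve1 and Folr2 relative to Ccr2 stayed negative wherever they could be computed. Genes brighter than olfactory and vomeronasal receptor probes, an alternative chosen after seeing the data, gave 20 of 27 members called lower, while 11.6% of the 13397 genes kept were. The cause of these shifts was not tested. Replicate numbers in the labels do not say what they share, and the correlations of same-numbered samples do not pair them. Dim probes limit what can be said of Ccr2, Timd4, Cd163, Siglec1, Cd14 and Aif1.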
